A study of Homo sapiens with 15 samples.

Results

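The HOX cluster genes encode homeodomain transcription factors that lie in 4 clusters of the human genome. They were examined in HT115, an established human colorectal cancer cell line, by poly(A)-selected RNA sequencing. The 38 members were taken by gene name and found through their Ensembl identifiers. All 38 were among the 60671 genes of the deposited count table. Every cell carried a construct that doxycycline switches on and was given 0.5 µg/ml doxycycline for 24 h. The induced protein was the SOX9 mutant M228, the SOX9 mutant M303, the SOX9 mutant M379, V5-tagged wild-type SOX9 (SOX9_WT) or, in the control group, GFP. Each of the 5 groups had 3 libraries. The series text describes M303 as truncated, and the sources used here do not say what M228 and M379 denote. Nor do they say whether a line was a clone or a pool, or whether separate cultures were used for replicate libraries. Every p-value therefore rests on the spread among replicate libraries, and part or all of that spread may be technical.

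HOX genes give cells of the embryo their position along the head-to-tail axis. Within a cluster they lie in the order in which they are used, from the anterior paralog groups with low numbers to the posterior groups with high numbers. HOX proteins bind DNA with TALE homeodomain partners such as MEIS, and Polycomb and Trithorax complexes hold the clusters silent or active. In the gut, posterior HOX genes mark the hindgut, from which the colon forms, and the CDX factors are known activators of HOX genes. SOX9 is an HMG-box transcription factor of intestinal stem and Paneth cells. The comparisons ask which clusters and positions these cells used, and whether the SOX9 constructs changed them.

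Library totals ranged from 3054755 counts in GFP replicate 1 to 31704249 counts in M303 replicate 1. A gene with no read could be present at up to 0.982 CPM (reads scaled to library size) in the shallowest library and 0.0946 CPM in the deepest, the level of 3 reads. These limits cover counting error only. SOX9 itself, counted from the endogenous gene and any construct sequence that maps to it, lay at 1900 to 2383 CPM in M228, 2949 to 3039 CPM in M303, 2034 to 2329 CPM in M379, 186 to 243 CPM in SOX9_WT and 97.6 to 158 CPM in GFP libraries. Against GFP, edgeR called SOX9 in M228, M303 and M379, at log2 fold changes of 4.14, 4.66 and 4.21, and did not call it in SOX9_WT, at 0.84 ± 0.18 (adjusted p = 0.110). Counted SOX9 was also called higher in each mutant than in SOX9_WT, by 3.30 in M228, 3.82 in M303 and 3.38 in M379, so each mutant-to-wild-type comparison below also compares those levels. All 10 colorectal epithelium markers reached 1 TPM (reads scaled to exon length and library size), whereas 2 of 12 markers of other cell types did. GFP replicate 2 stood apart from the other libraries, for example with 69.0 CPM of the methyltransferase gene KMT2D against 116.6 to 288.9 CPM elsewhere, and leaving it out gave no called HOX member in any of the 4 comparisons with GFP. In bulk RNA, fewer cells of a kind and less RNA per cell cannot be told apart.

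HOX RNA in these cells came mostly from the HOXB cluster. Levels between genes were compared as TPM. Averaged over 15 libraries, HOXB genes held 82.2% of all HOX TPM, with a range of 76.3% to 86.7%. HOXA genes held 13.7%, HOXC genes 2.13% and HOXD genes 2.00%. The HOX total lay between 434.7 and 820.1 TPM, with a median of 537.4 TPM. Paralog groups 6 to 9 together held 76.4% of it. Of the 38 members, 8 averaged 10 TPM or more, 19 averaged 1 TPM or more, 11 lay between 0.1 and 1 TPM and 8 stayed under 0.1 TPM. The members at 1 TPM or more were 8 of 10 in HOXA, 8 of 10 in HOXB, 2 of 9 in HOXC and 1 of 9 in HOXD.

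**Figure D1:**
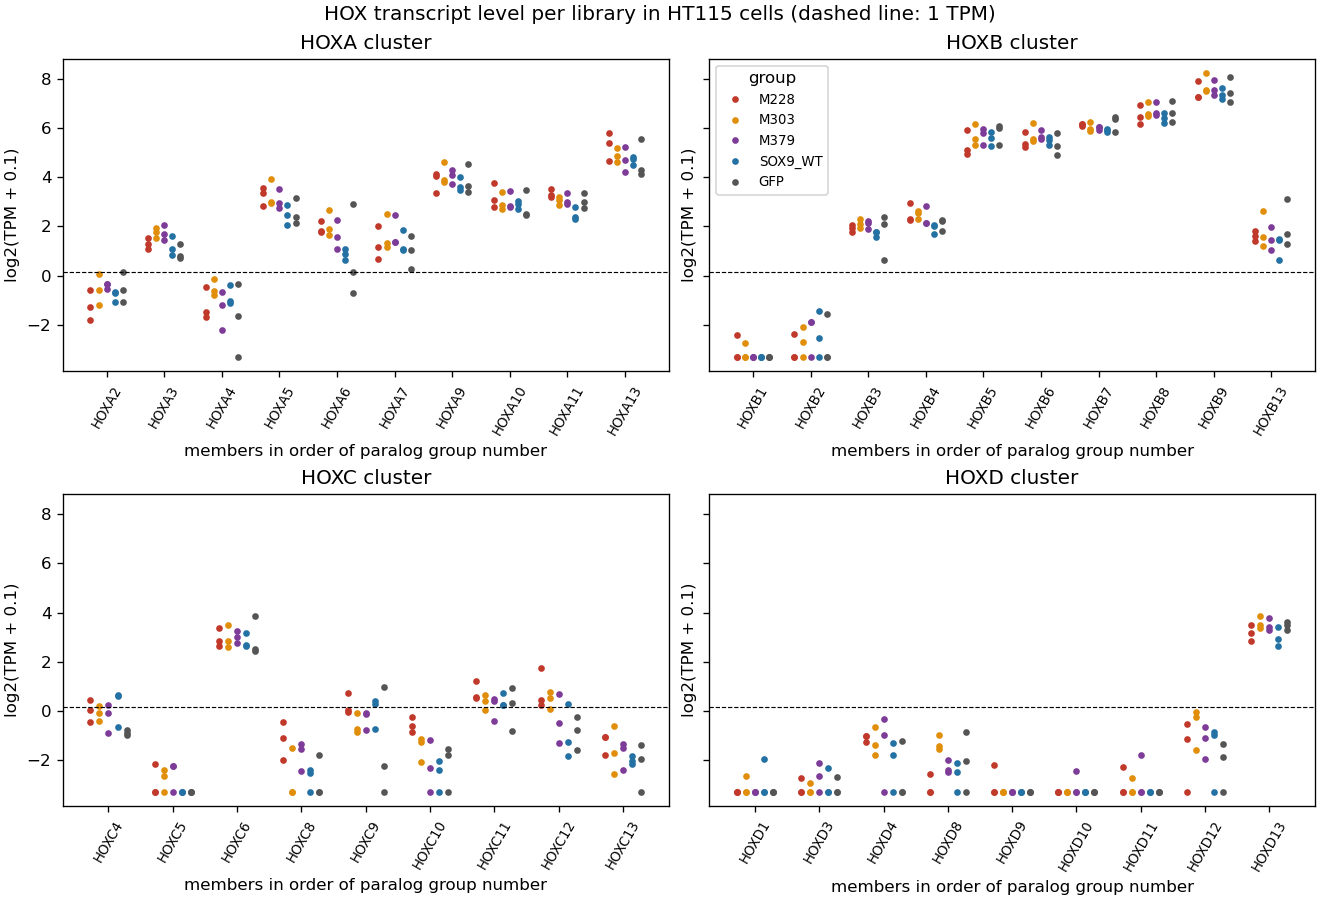
Level of each of the 38 members in each library, as log2(TPM + 0.1), by cluster and in the order of paralog group number, with 1 point per library coloured by group and a dashed line at 1 TPM. HOXB5 to HOXB9 form the highest block, HOXA3 to HOXA13 lie mostly above the line, and in HOXC and HOXD only HOXC6, HOXC11 and HOXD13 average above it.

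In HOXB (chromosome 17, positions 48528526 to 48728750, GRCh38), HOXB9 was the highest member of all. This posterior gene, at chr17:48621156-48626358 on the minus strand, averaged 195.5 ± 50.5 TPM (SD, n = 15 libraries), and 629 of the 60671 genes had a higher mean. HOXB9 lay at 243, 157 and 157 TPM in M228, 304, 189 and 182 TPM in M303, 251, 165 and 187 TPM in M379, 201, 165 and 147 TPM in SOX9_WT and 277, 173 and 134 TPM in GFP libraries. Replicate 1 was the highest library of each group, and all groups overlapped. HOXB9 alone made up 33.5% of the HOX total.

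Its neighbour HOXB8 (chr17:48611377-48615292) lay at 124, 73.4 and 87.2 TPM in M228, 135, 91.8 and 96.9 TPM in M303, 134, 92.7 and 98.4 TPM in M379, 98.9, 86.7 and 75.2 TPM in SOX9_WT and 139.8, 98.6 and 77.1 TPM in GFP libraries. HOXB7 (chr17:48607232-48633572) lay at 72.9, 72.2 and 69.1 TPM in M228, 77.1, 59.98 and 63.3 TPM in M303, 67.2, 65.9 and 61.9 TPM in M379, 62.8, 57.6 and 60.8 TPM in SOX9_WT and 88.8, 83.1 and 57.8 TPM in GFP libraries. HOXB7 varied least of these 3 genes relative to its level, and by TPM its 2 highest libraries were GFP replicates 1 and 2. On the CPM scale of the tests below, GFP replicate 2 was the highest at 49.0 CPM. M228 replicate 2 followed at 35.6 CPM and GFP replicate 1 at 34.7 CPM. HOXB9 exceeded HOXB8 in 15 of 15 libraries, HOXB8 exceeded HOXB7 in 15 of 15 and HOXB7 exceeded HOXB5 in 15 of 15. HOXB5 and HOXB6, at 50.9 and 47.9 TPM, were not ordered, since HOXB5 was the higher in 9 of 15. Toward the anterior end HOXB4 averaged 4.89 TPM and HOXB3 3.77 TPM. HOXB2 and HOXB1 were at 0.0795 and 0.00906 TPM, the second on 2 reads in all. At the posterior end, HOXB13, best known from prostate and hindgut, averaged 3.29 TPM. HOXB7, HOXB8, HOXB9 and HOXB13 share no exon base with another annotated gene, but 32.9% of HOXB6 exon bases lie within exons of HOXB3 or HOXB-AS3. Reads on bases shared by annotated genes were not assigned, so the level of HOXB6 is uncertain.

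In HOXA (chromosome 7, positions 27100354 to 27200091) the level was highest at the posterior end. HOXA13, which patterns the limb tip and hindgut, lies at chr7:27193503-27200091 on the minus strand. HOXA13 lay at 55.5, 42.8 and 25.2 TPM in M228, 36.4, 29.5 and 24.5 TPM in M303, 38.1, 25.9 and 18.8 TPM in M379, 28.5, 26.8 and 22.7 TPM in SOX9_WT and 47.4, 17.5 and 19.6 TPM in GFP libraries. Its 2 highest libraries by TPM were M228 replicate 1 and GFP replicate 1. On the CPM scale of the tests below, the 2 highest were M228 replicates 1 and 2, at 82.6 and 70.5 CPM. GFP replicate 1 followed at 61.7 CPM. M228 replicate 3 was at 40.3 CPM, and M228 libraries overlapped those of every other group.

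HOXA9, a blood stem cell and leukaemia factor, lay at 17.3, 16.4 and 10.4 TPM in M228, 24.97, 14.05 and 14.6 TPM in M303, 19.7, 16.9 and 13.4 TPM in M379, 15.9, 12.1 and 11.1 TPM in SOX9_WT and 23.4, 10.4 and 12.5 TPM in GFP libraries. HOXA10, a factor of the uterus and the axial skeleton, lay at 13.6, 8.43 and 6.90 TPM in M228, 10.4, 6.51 and 7.32 TPM in M303, 10.7, 6.81 and 6.96 TPM in M379, 8.13, 7.51 and 6.54 TPM in SOX9_WT and 11.1, 5.61 and 5.41 TPM in GFP libraries. Both genes overlapped in all 5 groups, and by TPM replicate 1 was the highest in each group. On the CPM scale of the tests below, replicate 1 was the highest in 4 of 5 groups for each gene. HOXA13 exceeded HOXA9 in 15 of 15 libraries and HOXA9 exceeded HOXD13 in 12 of 15. HOXA10, HOXA11, HOXA5 and HOXC6 formed one level, at 7.89 to 8.13 TPM, in which no gene exceeded the next in more than 9 of 15 libraries. HOXA6, HOXA7 and HOXA3 averaged 3.19, 2.78 and 2.60 TPM. HOXA2 and HOXA4 stayed at 0.549 and 0.415 TPM. Exon bases shared with other genes were 62.5% in HOXA7, 47.8% in HOXA4, 40.1% in HOXA6, 27.2% in HOXA11, 27.0% in HOXA9 and 26.2% in HOXA10, against 1.70% in HOXA13. Counting did not use strand, and reads on the shared bases were not assigned to any gene. TPM divides by all exon bases, so the levels of the genes with large shares are uncertain and may be understated.

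HOXC (chromosome 12, positions 53938831 to 54056030) was at a low level apart from HOXC6. HOXC6 lay at 10.4, 7.05 and 6.12 TPM in M228, 11.3, 6.005 and 7.02 TPM in M303, 9.36, 6.69 and 7.88 TPM in M379, 8.74, 6.28 and 6.12 TPM in SOX9_WT and 14.4, 5.34 and 5.66 TPM in GFP libraries. HOXC11 lay at 2.21, 1.33 and 1.37 TPM in M228, 1.43, 1.21 and 0.905 TPM in M303, 1.27, 1.22 and 0.651 TPM in M379, 1.56, 1.08 and 1.07 TPM in SOX9_WT and 1.81, 1.14 and 0.457 TPM in GFP libraries. HOXC6 was several times the level of HOXC11, and both were highest in GFP replicate 1 or M228 replicate 1. HOXC12, HOXC4 and HOXC9 averaged 0.987, 0.827 and 0.804 TPM. HOXC10, HOXC13, HOXC8 and HOXC5 lay between 0.0322 and 0.242 TPM. Exon bases shared with other genes, whose reads were not assigned, were 59.9% in HOXC5, 17.5% in HOXC4 and 16.1% in HOXC6, and none in HOXC11, HOXC12 and HOXC8.

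HOXD (chromosome 2, positions 176092721 to 176190907) was read from its posterior end. HOXD13, the limb and hindgut gene at chr2:176092721-176095944 on the plus strand, lay at 7.06, 8.83 and 11.1 TPM in M228, 11.2, 10.4 and 14.5 TPM in M303, 9.66, 10.4 and 13.6 TPM in M379, 6.12, 7.45 and 10.6 TPM in SOX9_WT and 9.80, 11.004 and 12.1 TPM in GFP libraries. Its neighbour HOXD12 (chr2:176099795-176102489) lay at 0.594, 0 and 0.348 TPM in M228, 0.867, 0.232 and 0.724 TPM in M303, 0.359, 0.155 and 0.525 TPM in M379, 0, 0.401 and 0.450 TPM in SOX9_WT and 0, 0.171 and 0.289 TPM in GFP libraries. HOXD13 was the higher of the pair in every library. HOXD4 and HOXD8 averaged 0.264 and 0.140 TPM, on 25 and 31 reads in all. HOXD3, HOXD11, HOXD1, HOXD9 and HOXD10 had under 10 reads each over the 15 libraries, and HOXD9 and HOXD10 had 1 read each. Shared exon bases were 60.1% in HOXD1, 24.4% in HOXD8 and 21.4% in HOXD11, and none in HOXD13 and HOXD12.

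The promoters of a high and a low neighbour in HOXD, and of the 2 highest HOXA members, are shown beside the order of levels along these clusters. Each runs from 250 bases before to 50 bases after the RefSeq start on GRCh38.p14, 5′ to 3′ on the gene's strand. Capitals mark letters that match one of 3 motifs searched on both strands, the TATA box core TATAAA, the SOX core AACAAT and the CDX and posterior HOX motif TTTATNG, of which TATAAA and TTTATNG can overlap. HOXD13 is chr2:176092471-176092770 (+), HOXD12 is chr2:176099545-176099844 (+), HOXA9 is chr7:27165488-27165787 (-) and HOXA13 is chr7:27200042-27200341 (-).
HOXD13: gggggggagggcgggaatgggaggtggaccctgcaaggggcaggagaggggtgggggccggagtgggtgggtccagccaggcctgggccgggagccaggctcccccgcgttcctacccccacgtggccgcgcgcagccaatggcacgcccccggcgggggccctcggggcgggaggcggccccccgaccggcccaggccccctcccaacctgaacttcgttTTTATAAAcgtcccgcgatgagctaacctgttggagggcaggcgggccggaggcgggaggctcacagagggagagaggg
HOXD12: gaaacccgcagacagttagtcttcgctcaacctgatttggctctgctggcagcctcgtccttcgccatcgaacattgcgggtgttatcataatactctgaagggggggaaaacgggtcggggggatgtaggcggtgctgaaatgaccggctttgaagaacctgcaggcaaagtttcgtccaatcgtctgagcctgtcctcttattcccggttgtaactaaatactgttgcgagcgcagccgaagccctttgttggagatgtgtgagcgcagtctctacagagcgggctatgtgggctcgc
HOXA9: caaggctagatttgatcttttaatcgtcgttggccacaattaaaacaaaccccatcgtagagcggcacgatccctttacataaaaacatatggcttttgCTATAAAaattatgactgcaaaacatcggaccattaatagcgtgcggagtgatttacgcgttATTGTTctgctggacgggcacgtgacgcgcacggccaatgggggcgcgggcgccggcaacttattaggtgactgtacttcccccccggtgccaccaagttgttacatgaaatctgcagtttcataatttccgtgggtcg
HOXA13: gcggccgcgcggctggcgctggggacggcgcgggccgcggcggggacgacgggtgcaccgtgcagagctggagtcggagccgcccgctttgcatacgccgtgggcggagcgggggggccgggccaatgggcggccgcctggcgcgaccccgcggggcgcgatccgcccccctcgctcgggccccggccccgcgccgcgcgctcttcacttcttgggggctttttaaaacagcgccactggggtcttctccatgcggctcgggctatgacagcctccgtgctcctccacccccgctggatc
In HOXD13 the capitals are TATAAA on both strands, overlapping. In HOXA9 the capitals nearer the 5′ end are TATAAA within a TTTATNG match on the other strand, and the capitals nearer the start are AACAAT on the other strand. Windows of HOXD12 and HOXA13 hold none of the 3 motifs. The RefSeq table held windows for 20 of the 38 members, of which HOXC4 and HOXC5 share 1. HOXB1 was the only HOXB gene among them, so no HOXB member at 1 TPM or more is covered, nor are HOXA5, HOXC6 and HOXC11. The 8 windows of members at 1 TPM or more were those of HOXA genes and HOXD13, and the 12 others were mostly of HOXD. Level and cluster therefore cannot be told apart in the counts that follow. TATAAA was in 4 of the 8 windows of members at 1 TPM or more (HOXA3, HOXA9, HOXA10 and HOXD13) and in 0 of the 12 of members under 1 TPM, beside 11.6% of 34943 windows of all genes. AACAAT was in 1 of the 8 windows, 0 of the 12 and 10.1% of all windows. TTTATNG was in 2 of the 8 windows, 3 of the 12 and 9.75% of all windows. The 3 were those of HOXC4, HOXC5 and HOXD8, so the window that HOXC4 and HOXC5 share is counted for each gene. In the share of all windows, each distinct window is counted once. The median number of CpG was 23 in the 8 windows, 21 in the 12 and 14 in all windows. A motif match describes letters and not a bound site.

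By group, the 19 members that averaged 1 TPM or more over all libraries did so in each of the 5 groups. The number at this level was 21 in M228, with HOXC9 and HOXC12 added, 20 in M303, with HOXC12 added, 19 in M379, 20 in SOX9_WT, with HOXC4 added, and 19 in GFP. Differences between groups were tested with the quasi-likelihood test of edgeR with Benjamini-Hochberg adjustment over 16160 genes, and a gene was called at an adjusted p under 0.05. The filter on low counts kept 22 members and dropped 16. Values for these tests are TMM-scaled CPM, which are not divided by length, and fold changes are on the log2 scale.

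**Figure D2:**
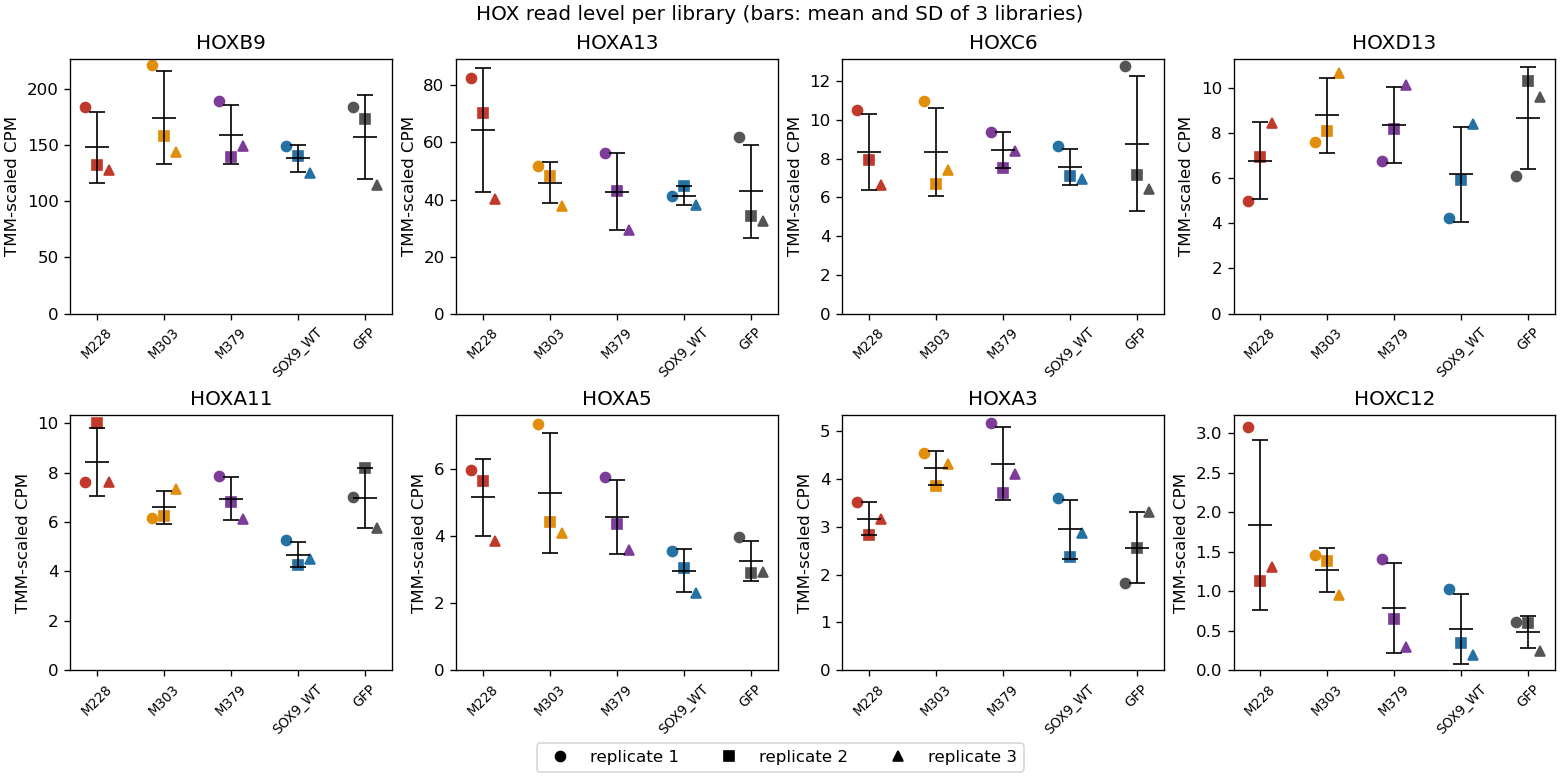
TMM-scaled CPM of selected members in each library, 1 panel per gene and 1 column per group in the order M228, M303, M379, SOX9_WT and GFP, with a point shape for each replicate and bars for their mean and SD. For HOXB9 the points of all 5 groups overlap, while for HOXA11 the 3 SOX9_WT libraries, between 4.27 and 5.25 CPM, lie below every other library.

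None of the 22 tested members was called between any construct and GFP. M228 against GFP gave 0 of 22 members, where 0.241% of all genes were called. M303 against GFP gave 0 of 22, where 0.118% were called, M379 against GFP 0 of 22, where 0.0371% were called, and SOX9_WT against GFP 0 of 22, where 0.0309% were called. DESeq2 also called 0 members in these 4 comparisons, where in the same order 1.01%, 0.551%, 0.309% and 0.415% of all genes were called. Members with an unadjusted p under 0.05 numbered 4 of 22 for M228, 4 for M303, 1 for M379 and 3 for SOX9_WT, beside 9.38%, 7.8%, 6.77% and 10.7% of all genes. The median log2 fold change of the members was 0.18 for M228, 0.18 for M303, 0.11 for M379 and -0.07 for SOX9_WT, and the median of all genes was at most 0.01 from 0 in each. The 4 comparisons share the GFP libraries. The largest single level, HOXB9, had log2 fold changes of -0.08 ± 0.21 in M228, 0.15 ± 0.21 in M303, 0.02 ± 0.21 in M379 and -0.18 ± 0.21 in SOX9_WT against GFP (SE, n = 3 each). Their 95% intervals lay between -0.63 and 0.60 in all 4.

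**Figure D3:**
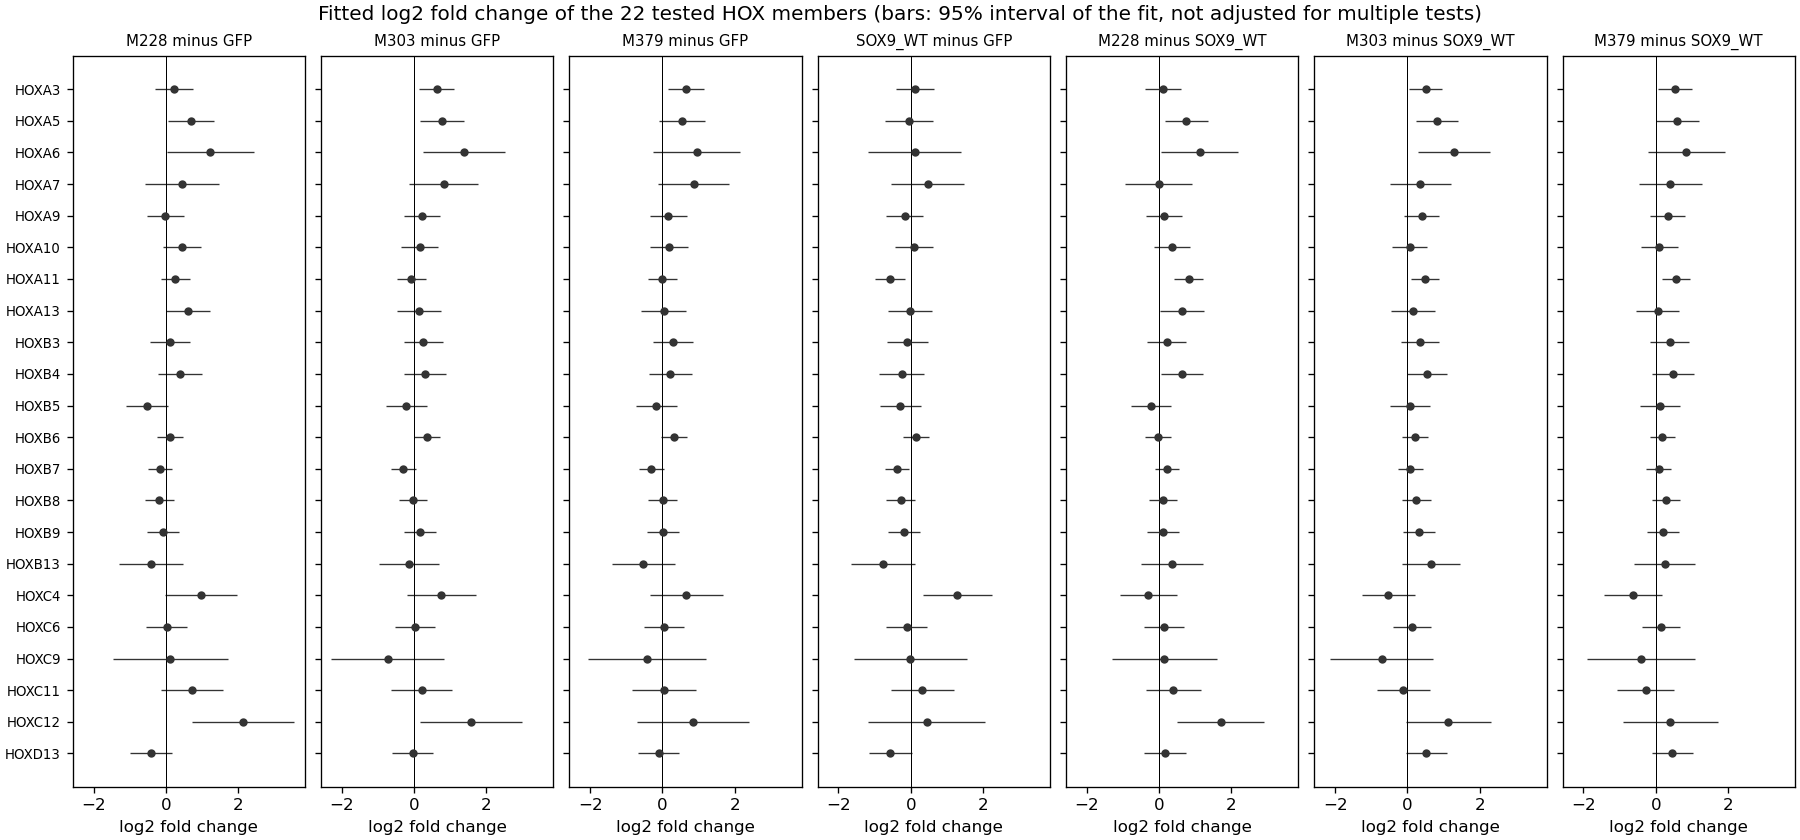
Fitted log2 fold change of the 22 tested members, 1 row per gene and 1 panel per comparison, with bars for the 95% interval of the fit, not adjusted for the number of genes. None of the members was called, and the widest bars belong to members of low level, such as HOXC9 and HOXC12.

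Members whose 3 construct libraries all exceeded all 3 GFP libraries numbered 2 of 22 for M228, beside 5.32% of all genes, 5 for M303, beside 5.5%, 3 for M379, beside 4.9%, and 0 for SOX9_WT, beside 6.6%. All 3 construct libraries lay below all GFP libraries in 0 members for M228, M303 and M379, beside 4.22%, 3.87% and 3.84% of all genes, and in 1 for SOX9_WT, HOXA11, beside 5.15%. HOXC12, a posterior gene of HOXC, had 48, 8 and 23 reads in M228, 49, 36 and 20 reads in M303, 21, 10 and 5 reads in M379, 21, 5 and 2 reads in SOX9_WT and 2, 7 and 4 reads in GFP libraries. On the CPM scale that was 3.08, 1.13 and 1.30 in M228, 1.46, 1.39 and 0.949 in M303, 1.41, 0.650 and 0.297 in M379, 1.02, 0.339 and 0.191 in SOX9_WT and 0.608, 0.596 and 0.245 in GFP libraries. M228 and M303 libraries of HOXC12 did not overlap GFP libraries, but M228 replicate 1 was far above the rest of its group. The log2 fold change of HOXC12 was 2.14 ± 0.67 for M228 against GFP (adjusted p = 0.281, edgeR). That value was 1.52 without M228 replicate 1 and 2.57 without GFP replicate 2. Without the filter on low counts, edgeR called it (adjusted p = 0.00208).

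HOXA5, which is needed for lung development in the mouse and shares no exon base with another gene, had 5.96, 5.65 and 3.84 CPM in M228, 7.34, 4.43 and 4.08 CPM in M303, 5.77, 4.35 and 3.57 CPM in M379, 3.55, 3.05 and 2.29 CPM in SOX9_WT and 3.95, 2.90 and 2.94 CPM in GFP libraries. M303 libraries of HOXA5 all lay above GFP libraries, and M228 and M379 libraries overlapped them. HOXA5 had a log2 fold change of 0.71 ± 0.30 for M228 (adjusted p = 0.484, edgeR) and 0.77 ± 0.29 for M303 (adjusted p = 0.542, edgeR) against GFP. HOXA3, which the thymus and parathyroid need in the mouse, had 3.52, 2.82 and 3.16 CPM in M228, 4.54, 3.85 and 4.32 CPM in M303, 5.17, 3.70 and 4.10 CPM in M379, 3.60, 2.37 and 2.87 CPM in SOX9_WT and 1.82, 2.56 and 3.30 CPM in GFP libraries. M303 and M379 libraries of HOXA3 lay above every GFP library. The log2 fold change of HOXA3 against GFP was 0.63 ± 0.23 in M303 (adjusted p = 0.522, edgeR) and 0.66 ± 0.23 in M379 (adjusted p = 0.630, edgeR). HOXB7 had 32.5, 35.6 and 33.1 CPM in M228, 32.9, 29.4 and 29.3 CPM in M303, 29.7, 32.6 and 29.0 CPM in M379, 27.3, 28.7 and 30.5 CPM in SOX9_WT and 34.7, 49.0 and 28.8 CPM in GFP libraries. Its high GFP value was that of replicate 2, the library that stood apart, and its log2 fold change for M379 against GFP was -0.31 ± 0.16 (adjusted p = 0.777, edgeR) with that library and -0.04 ± 0.11 without it. HOXC4 had 1.03, 0.565 and 0.791 CPM in M228, 0.806, 0.577 and 0.711 CPM in M303, 0.872, 0.390 and 0.713 CPM in M379, 1.17, 1.29 and 0.478 CPM in SOX9_WT and 0.304, 0.511 and 0.367 CPM in GFP libraries. GFP libraries of HOXC4 had the lowest mean but overlapped SOX9_WT and M379 libraries, and the log2 fold change of SOX9_WT against GFP was 1.28 ± 0.45 (adjusted p = 0.431, edgeR).

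Against wild-type SOX9, the mutants also gave no called member. M228 against SOX9_WT gave 0 of 22 members, where 0.569% of all genes were called, M303 against SOX9_WT 0 of 22, where 0.384% were called, and M379 against SOX9_WT 0 of 22, where 0.124% were called. For M228, M303 and M379 in turn, 6, 4 and 2 of 22 members had an unadjusted p under 0.05, beside 6.65%, 6.31% and 4.7% of all genes. DESeq2 called 1 member for M228, HOXA11, and 0 for M303 and M379, where 1.4%, 1.05% and 0.439% of all genes were called. Most fitted values were positive, in 18 of 22 members for M228, 19 for M303 and 19 for M379, beside 52.0%, 52.1% and 50.7% of all genes. Their median log2 fold changes were 0.19, 0.34 and 0.27, against medians of all genes between 0.00 and 0.01. Members with all 3 mutant libraries above all 3 SOX9_WT libraries numbered 6 of 22 for M228, beside 7.12% of all genes, 7 for M303, beside 9.51%, and 4 for M379, beside 9.75%. None had all 3 mutant libraries below, beside 8.61%, 9% and 9.48% of all genes. These comparisons share the SOX9_WT libraries.

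HOXA11, a limb, kidney and uterus gene at chr7:27181157-27185232 on the minus strand, had the lowest p of these comparisons. HOXA11 had 7.62, 10.03 and 7.63 CPM in M228, 6.18, 6.24 and 7.35 CPM in M303, 7.85, 6.82 and 6.12 CPM in M379, 5.25, 4.27 and 4.49 CPM in SOX9_WT and 6.99, 8.18 and 5.75 CPM in GFP libraries. All 3 SOX9_WT libraries lay below all 12 others. For M228 against SOX9_WT HOXA11 averaged 8.43 ± 1.39 CPM in M228 and 4.67 ± 0.51 CPM in SOX9_WT (SD, n = 3 each) and the log2 fold change was 0.83 ± 0.19 (SE, unadjusted p = 0.000508, adjusted p = 0.0714, edgeR). DESeq2 gave 0.81 with an adjusted p of 0.0130. The log2 fold change of HOXA11 was 0.49 ± 0.18 for M303 (adjusted p = 0.544) and 0.56 ± 0.19 for M379 (adjusted p = 0.628) against SOX9_WT by edgeR. It was -0.56 ± 0.20 for SOX9_WT against GFP (adjusted p = 0.431, edgeR). The antisense gene HOXA11-AS, which covers 27.2% of its exon bases, had 1.53 to 4.61 CPM in the other groups and 1.02 to 2.19 CPM in SOX9_WT.

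HOXA5 had the lowest p for M303 against SOX9_WT, at 0.82 ± 0.27 (adjusted p = 0.389, edgeR). Deviations of same-numbered libraries correlated at 0.358, 0.101 and 0.335 in this pair of groups, the replicate 2 value lying just above the minimum of 0.1 used. With replicate number as a block HOXA5 was called at 0.82 (adjusted p = 0.0177, edgeR), where 1.6% of all genes were called. HOXA6 had 1.73, 1.41 and 1.36 CPM in M228, 2.27, 1.501 and 1.19 CPM in M303, 1.74, 0.845 and 1.13 CPM in M379, 0.632, 0.611 and 0.860 CPM in SOX9_WT and 2.43, 0.256 and 0.428 CPM in GFP libraries. The 3 M228 and 3 M303 libraries of HOXA6 lay above the SOX9_WT libraries, while GFP libraries spread wider than any other group. The log2 fold change of HOXA6 was 1.28 ± 0.47 for M303 against SOX9_WT (adjusted p = 0.494, edgeR), and 40.1% of its exon bases lie in other genes. HOXC12 stood at 1.70 ± 0.57 for M228 against SOX9_WT (adjusted p = 0.333, edgeR), and at an adjusted p of 0.00534 without the filter on low counts. It was 1.08 without M228 replicate 1 and 2.75 without SOX9_WT replicate 1. HOXA3 stood at 0.54 ± 0.22 for M379 against SOX9_WT (adjusted p = 0.910, edgeR). HOXA13, the highest HOXA member, had 64.4 CPM on average in M228 and 41.3 CPM in SOX9_WT, a log2 fold change of 0.64 ± 0.28 (adjusted p = 0.680, edgeR). HOXB9 gave 0.10 for M228, 0.33 for M303, with an interval of -0.11 to 0.78, and 0.20 for M379.

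Between mutants, edgeR called 0 of 22 members for M303 against M228, where 0.0124% of all genes were called, 0 for M379 against M228, where 0.0433% were called, and 0 for M379 against M303, where 0% were called. An unadjusted p under 0.05 was reached by 0, 1 and 0 members, beside 2.66%, 3.47% and 0.848% of all genes. DESeq2 called 0 members in each, where 0.0681%, 0.118% and 0% of all genes were called. The 1 member was HOXC12, at -1.29 ± 0.54 for M379 against M228 (adjusted p = 1, edgeR). HOXC11 and HOXC9 had all 3 M303 libraries and all 3 M379 libraries below the 3 M228 libraries, as did HOXA11 for M303. That made 3 members for M303, beside 3.6% of all genes, and 2 for M379, beside 5.54%. HOXA3 lay above the M228 libraries in M303, beside 5.14%, and in M379, beside 5.94%. Between M379 and M303 all members overlapped, while 2.28% of all genes were higher and 2.59% lower without overlap. The values for M303 and M379 share the M228 libraries.

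HOX members did differ by replicate number, a comparison chosen after the values were seen. With group in the model, replicate 1 was set against replicates 2 and 3 of all 5 groups. Of 22 members, edgeR called 12, with 11 higher and 1 lower in replicate 1, where 15.4% of all genes passed the same test, made up of 7.93% higher and 7.52% lower in replicate 1. The median log2 fold change was 0.40 for the members and 0.00 for all genes. The labels do not say what the replicate number stands for. The replicate 1 libraries included the shallowest and the deepest of all, and the part of depth in the difference was not tested. Epithelial markers moved with it too. Of 10 tested, edgeR called KRT8 and KRT18 lower in replicate 1, at -0.67 ± 0.10 and -0.77 ± 0.14, and GPA33 and CDX2 higher, at 0.41 ± 0.08 and 0.46 ± 0.10. Of 12 markers of other cell types 4 were tested, and the fibroblast collagen gene COL3A1 was called lower, with 0.301 CPM in replicate 1 and 0.747 CPM in replicates 2 and 3, while CDH5 and CD3E had no read. The part of these markers in the difference was not tested.

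**Figure D4:**
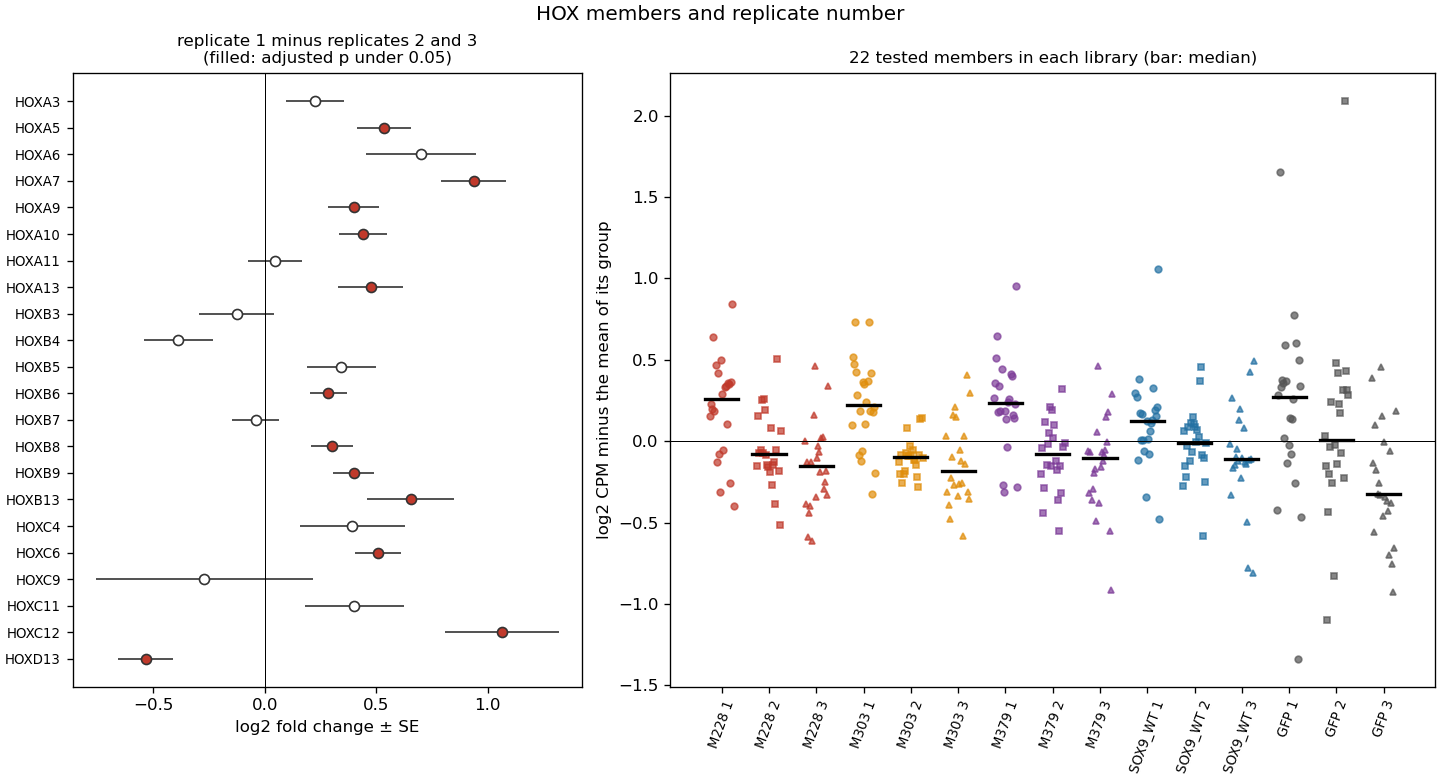
Left, log2 fold change of replicate 1 minus replicates 2 and 3 for each of the 22 tested members, with bars for the SE and filled points for an adjusted p under 0.05; right, log2 CPM of each member minus the mean of its group in each of the 15 libraries, with a bar at the median. The median bar of replicate 1 is above 0 in all 5 groups, from 0.13 to 0.27, and HOXD13 is the filled point on the negative side.

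The higher members came from 3 clusters. HOXB9 averaged 185 CPM in replicate 1 and 140.1 CPM in replicates 2 and 3, a log2 fold change of 0.40 ± 0.09 (adjusted p = 0.0102, edgeR), with replicate 1 the highest in 5 of 5 groups. HOXC6 averaged 10.5 and 7.23 CPM in the same order, at 0.51 ± 0.10 (adjusted p = 0.00503, edgeR), also highest in 5 of 5 groups. HOXA7 had 2.82, 1.69 and 1.13 CPM in M228, 3.79, 1.85 and 1.57 CPM in M303, 3.83, 1.95 and 1.84 CPM in M379, 2.43, 1.56 and 1.62 CPM in SOX9_WT and 1.82, 1.02 and 1.53 CPM in GFP libraries. Its highest library was replicate 1 in each group, and it stood at 0.94 ± 0.15 (adjusted p = 0.00109, edgeR). The other higher members were HOXA5, HOXA9, HOXA10, HOXA13, HOXB6, HOXB8, HOXB13 and HOXC12, at 0.29 to 1.07. HOXD13 went the other way. It averaged 5.93 CPM in replicate 1 and 8.66 CPM in replicates 2 and 3, at -0.53 ± 0.12 (adjusted p = 0.0108, edgeR), and replicate 1 was the lowest in 5 of 5 groups. HOXB4, at -0.39 ± 0.15, was not called (adjusted p = 0.104, edgeR), nor were HOXB7 at -0.04 and HOXA11 at 0.05. When only replicates 1 and 2 were used, 1 member, HOXA7, was called, where 1.68% of all genes were, and when only replicates 1 and 3 were used 16 were, where 33.1% of all genes were. When each library was left out in turn, 4 to 14 members were called, and the share of all genes called moved with that count. There were 4 without M228 replicate 1, beside 6.75% of all genes, 4 without M303 replicate 1, beside 5.4%, and 5 without M379 replicate 1, beside 8.52%. There were 7 without GFP replicate 1, beside 8.49%, 7 without M303 replicate 3, beside 10.6%, and 7 without SOX9_WT replicate 3, beside 11.8%. The 14 were called without GFP replicate 2, beside 32.2%. HOXA7 and HOXC6 were called in 15 of those 15 fits, HOXD13 and HOXA5 in 14, HOXB9 and HOXC12 in 13 and HOXA10 in 12. The other called members depended more on single libraries. HOXA13 and HOXB13 were called in 7 of 15, HOXA9 in 6, HOXB6 in 5 and HOXB8 in 4.

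The partners and regulators of HOX genes were not called between constructs either. Of 9 listed HOX cofactors 7 were tested, of 33 chromatin regulators 33, of 15 CDX and retinoid genes 9 and of 18 HOX cluster antisense and long noncoding RNAs 8, and edgeR called 0 of them in each of the 10 comparisons. At an unadjusted p under 0.05 no list had more than 2 members in a comparison, but the lists differ in size. Of the 8 noncoding RNAs, 2 reached it for M228 and for M303 against SOX9_WT, beside 6.65% and 6.31% of all genes. The count was also 2 for M303 and for M379 against M228, beside 2.66% and 3.47%. For M228 against SOX9_WT, 2 of 9 CDX and retinoid genes and 2 of 33 chromatin regulators reached it. DESeq2 called CBX6, a Polycomb subunit, and ALDH1A3, a retinoic acid synthesis enzyme, for M228 and for M303 against SOX9_WT. In the pairs of groups whose same-numbered libraries deviate together, edgeR with replicate number as a block called CBX6 at 0.96 (adjusted p = 0.00417) and ALDH1A3 at -1.07 (adjusted p = 0.00964) for M303 against SOX9_WT. It also called the cofactor gene MEIS2 at 0.95 (adjusted p = 0.0355) for M228 against GFP. CDX2 and CDX1, intestinal homeodomain factors, averaged 288 and 138 TPM over all libraries, and CDX4 had no read. CDX2 averaged 273 CPM in M228, 331 CPM in M303, 312 CPM in M379, 307 CPM in SOX9_WT and 333 CPM in GFP libraries. The DNA-binding partner MEIS1 averaged 0.0650 TPM, and the Polycomb methyltransferase EZH2 averaged 66.0 TPM. CDX2 was higher in replicate 1, at 381 CPM, than in replicates 2 and 3, at 276 CPM (log2 fold change 0.46 ± 0.10, adjusted p = 0.00823, edgeR). The listed retinoid genes RXRB and RXRA were also called higher, at 0.38 ± 0.07 and 0.23 ± 0.07. CDX1 at 0.14 and SOX9 at -0.10 were not called in this comparison.

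Among noncoding RNAs of the clusters, HOXB-AS4, HOXB-AS3 and HOTTIP were the highest, at 37.8, 25.5 and 18.4 TPM, and HOTAIR, from HOXC, averaged 0.263 TPM. HOTTIP, transcribed from the posterior end of HOXA next to HOXA13, had 57.7, 45.8 and 27.8 CPM in M228, 33.0, 35.2 and 20.4 CPM in M303, 32.7, 31.4 and 21.8 CPM in M379, 23.9, 24.6 and 17.5 CPM in SOX9_WT and 25.2, 16.8 and 16.0 CPM in GFP libraries. All 3 M228 libraries lay above all SOX9_WT and GFP libraries. The log2 fold change of HOTTIP was 1.22 ± 0.28 for M228 against GFP (adjusted p = 0.104, edgeR) and 0.99 ± 0.27 for M228 against SOX9_WT (adjusted p = 0.170, edgeR), and DESeq2 called both. With replicate number as a block edgeR called HOTTIP at 1.15 for M228 against GFP (adjusted p = 0.00230). HOXA13 beside it had 82.6, 70.5 and 40.3 CPM in M228 and 61.7, 34.3 and 32.6 CPM in GFP libraries, which overlapped, at 0.62 ± 0.29 (adjusted p = 0.531, edgeR).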

How the data were processed

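Poly(A) RNA of HT115 cells was sequenced as paired ends, per the labels' protocols. The submitters' processing notes name STAR 2.7.0a and hg38. The authors deposited unnormalized counts, which featureCounts 2.0.1 made from Ensembl release 101 gene models (GRCh38), per the file headers. Its command sets no paired-end, strand or multi-overlap option, so read ends were counted singly, both strands were counted together and reads on bases shared by genes were not assigned. Any trimming or filtering of reads is not stated in these sources. The deposited normalized table was not used here. The exon length per gene came from the deposited count table and gave TPM over all 60671 genes.

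Counts were scaled with TMM, filtered with filterByExpr (16160 genes kept) and fitted over all 15 libraries with edgeR 4.0.16 (limma 3.58.1, R 4.3.3; 10 residual degrees of freedom), with Benjamini-Hochberg adjustment within each of 10 comparisons. DESeq2 1.42.0, its size factors, no filter, only the groups compared, a replicate block, replicates 2 and 3 only and each library left out were the alternatives. The fitting steps were tested on simulated data. Replicate pairs differed beyond sampling noise (chi-square per degree of freedom 4.04 to 97.2), so none was counted as 1 sample.

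The members and lists were chosen with earlier results of these data known. Values in every library are given for members called between groups (none was), for the 3 highest members of each cluster (2 in HOXC and HOXD) and for the 2 members of lowest p in each comparison with GFP or SOX9_WT. Listed regulators were to be named where called, with CDX1, CDX2, MEIS1, EZH2 and SOX9 named in any case, and 1 listed cofactor is not reported here. CBX6, ALDH1A3, MEIS2, HOTTIP, HOXA13 in the comparisons, and all named values by replicate number were chosen after their values were seen. Replicate numbers come from the sample titles. Deviations of same-numbered libraries correlated above 0.1 in all 3 pairs for M228, M303 and M379 against GFP (lowest 0.169), M303 against SOX9_WT (lowest 0.101) and between mutants (lowest 0.187). The main fits used group means only and did not model this pairing. It entered only the alternative with a replicate block.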

Additional observations from a re-analysis of the deposited data

How the results depend on the processing

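The number of HOX members at 1 TPM or more kept within 18 to 23 with minimums of 0.5 or 2 TPM, with CPM and with each library left out. By CPM, which weights long transcripts more, HOXA held 19.5%, HOXB 76.0% and HOXC 2.65% of the HOX total. The count of called members, 0 in each of 10 comparisons, became 1 for M228 against GFP and 1 for M228 against SOX9_WT without the filter on low counts (HOXC12, beside 0.755% and 0.857% of all genes). It became 1 for M228 against SOX9_WT with DESeq2 (HOXA11, beside 1.4% of all genes) and 1 with only those 2 groups (HOXA11, beside 1.85%). The count stayed 0 in every fit that left out a library or kept replicates 2 and 3. With replicate number as a block it was 1 for M303 against SOX9_WT (HOXA5, beside 1.6% of all genes). For M228 against SOX9_WT, whose numbers do not pair the libraries (lowest correlation 0.0641), the block gave 3 (HOXA5, HOXA11 and HOXC12), and it changed no other count of called members. With the block the genes called over the whole table rose to 1.97% for that pair and 1.12% for M228 against GFP. Members called in replicate 1 against replicates 2 and 3 numbered 13 with DESeq2 (beside 19.1% of all genes), 13 without the filter (7.41%), 1 with replicates 1 and 2 only (1.68%), and 4 to 14 with a library left out (5.4% to 32.2%). Values near 0 changed sign. HOXA13 for SOX9_WT against GFP became 0.013 with the block and 0.30 with replicates 2 and 3 (-0.18 to 0.31 with a library left out). HOXA13 for M379 against SOX9_WT became -0.00075 with the block and -0.20 with replicates 2 and 3 (-0.20 to 0.26). With replicates 2 and 3, HOXB9 became -0.0080 for M379 against GFP (-0.16 to 0.14 with a library left out) and -0.035 for M228 against SOX9_WT (-0.094 to 0.19). With a library left out, HOXB9 ranged over -0.28 to 0.045 for M228 and -0.055 to 0.28 for M303, and HOXA13 over -0.028 to 0.45 for M303 and -0.23 to 0.35 for M379, all against GFP. The causes were not tested. Values of single genes were recomputed for the construct comparisons and by replicate number, and are counted together here. Of these, 502 kept their side and direction, 67 lost a call, 8 gained one and 22 reversed. No member was called between constructs in the main fits, so all lost calls were by replicate number. All gained calls were between constructs. GFP replicate 1, at 3054755 counts, limits what low members can show.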

Other observations

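By replicate number, a comparison chosen after the values were seen, edgeR called 2 of 33 chromatin regulators higher and 3 lower in replicate 1, a share near the 15.4% of all genes called, and their median log2 fold change was 0.03. The Polycomb subunit CBX7 averaged 11.2 CPM in replicate 1 and 8.24 CPM in replicates 2 and 3 (log2 fold change 0.45 ± 0.10, adjusted p = 0.00774, edgeR), highest in replicate 1 in 5 of 5 groups. CBX2, of the same family, averaged 33.2 CPM and 46.5 CPM in that order (-0.48 ± 0.10, adjusted p = 0.00697, edgeR), lowest in 5 of 5 groups. EED, a core subunit of the Polycomb methyltransferase complex, stood at -0.25 ± 0.07 (adjusted p = 0.0322, edgeR). The called regulators also included DOT1L at -0.37 ± 0.08 (adjusted p = 0.00782, edgeR) and ASH2L at 0.25 ± 0.07 (adjusted p = 0.0242, edgeR). Among 8 tested noncoding RNAs of the clusters, 3 were called and higher: HAGLR at 0.93 ± 0.19, HOXA11-AS at 0.68 ± 0.16 and HOXB-AS4 at 0.53 ± 0.12.

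GFP replicate 2 held 23.4 CPM of KMT2C and 69.0 CPM of KMT2D, both Trithorax-type methyltransferases, against 66.9 to 151.8 CPM and 116.6 to 288.9 CPM in the other libraries. In the same library HOXB3 was at 4.17 CPM, against 7.06 to 11.1 CPM elsewhere. HOXB5 and HOXB7 were at their highest there, at 50.9 and 49.0 CPM. The part of that library in these values was not tested.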
